A study of Mus musculus with 144 samples.

Results

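Lysosomal proteases, 9 in number, and 1 protease inhibitor were followed in single retinal microglia: the cysteine cathepsins Ctsl, Ctss, Ctsb, Ctsc, Ctsh and Ctsz, the aspartic cathepsin Ctsd, the serine carboxypeptidase Ctsa, legumain (Lgmn) and cystatin C (Cst3). They were taken by gene name from the deposited expression table, 10 genes of the 55364 in it.

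Microglia carrying green fluorescent protein were sorted one by one from retinas of Iba1-EGFP mice, in which the promoter of Iba1, a protein of microglia and other macrophages, marks the cells. The mice received PBS (aged 10 to 14 weeks), 1 mg/kg ripasudil (14 weeks) or 10 mg/kg ripasudil (12 weeks), a ROCK kinase inhibitor. Each group gave 48 cells, 16 on each of 3 plates, and 46 PBS cells, 47 cells of 1 mg/kg and 47 cells of 10 mg/kg, in which 1000 genes or more reached 1 FPKM, were kept. The labels name no animal, so each group counts as 1 sample, no test between groups was possible, and the spread between the 3 plates stands in for an error. Dose, age and the block of wells, which was the same on every plate, cannot be told apart. The route and length of treatment and the state of the eyes are not given in the sources used here.

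Cathepsins digest proteins inside the acidic endolysosome, where microglia break down engulfed debris and synapses. They are made as inactive precursors that are cut to maturity in the lysosome, partly by one another and by legumain. Cystatin C is secreted and binds several papain-like cysteine cathepsins tightly, though not all to the same degree, and at a separate surface it also blocks legumain. It does not act on the aspartic Ctsd or the serine enzyme Ctsa.

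Assigned reads ran from 30204 to 4668730 per cell, and the median number of detected genes was 3143 in PBS cells, 2418 at 1 mg/kg and 2264 at 10 mg/kg. All 140 kept cells held at least 3 of 10 microglial markers, with Csf1r in 140 cells, Cx3cr1 in 134, Tmem119 in 124, Gpr34 in 110, P2ry12 in 109, Fcrls in 83 and Sall1 in 33. Other cell types left traces. At least 3 of 10 rod markers were present in 5 PBS cells, 6 cells of 1 mg/kg and 9 cells of 10 mg/kg, and the summed rod markers reached 346 FPKM in PBS cells, 4897 at 1 mg/kg and 13754 at 10 mg/kg. At least 3 of 8 markers of border macrophages, the macrophages of meninges and vessels, were present in 5, 4 and 3 cells of these groups, with sums up to 4423, 4722 and 5754 FPKM. At least 3 of 8 neutrophil markers were present in 10, 8 and 8 cells, with sums up to 83839.5, 127224 and 82185 FPKM, the largest of these lists. S100a8 was present in 42 cells, S100a9 in 36 and Csf3r in 50, and Camp stayed below 1 FPKM in every cell. No cell held 3 of 8 markers of Mueller glia and astrocytes, whose sums reached 253, 732 and 866 FPKM. Of that list Aqp4 and Gfap stayed below 1 FPKM in every cell, while Glul was present in 82 cells and Slc1a3 in 9.

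Of the 10 genes, 6 were among the 66 of highest mean level in these cells. Together the 10 made up a median of 5.34% of a cell's total FPKM in PBS cells, 6.48% at 1 mg/kg and 5.77% at 10 mg/kg. FPKM is scaled to gene length, so the ranking depends on the lengths used, which ran from 1266 bases for Cst3 to 6489 for Ctsl. Ctsb, Ctsc, Ctsa and Ctsh were also long, at 6051, 5808, 4715 and 4499 bases. By mean FPKM over the 140 cells, Cst3 came first at 15380.2, the second highest of all genes, followed by Ctss at 6525 (place 10), Ctsd at 4816 (place 16), Ctsz at 2670 (place 26), Lgmn at 1426 (place 43) and Ctsb at 938 (place 66). Ctsc at 336, Ctsa at 276, Ctsh at 140.02 and Ctsl at 139.6 stood between places 195 and 493. Over the 9 means of a group on a plate, Cst3 (8568 to 22339) did not overlap Ctss (3545 to 7759), Ctsz (1970 to 3344) did not overlap Lgmn (1261 to 1552), Lgmn did not overlap Ctsb (689 to 1145), and Ctsb did not overlap Ctsc (237 to 472). The neighbours Ctss and Ctsd, Ctsd and Ctsz, Ctsc and Ctsa, Ctsa and Ctsh, and Ctsh and Ctsl overlapped in those means and were not separated by them.

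Detection followed that order. Cst3, Ctss, Ctsd, Ctsz, Lgmn and Ctsb were present at 1 FPKM or more in 140 of 140 cells, Ctsc in 134, Ctsa in 126, Ctsh in 108 and Ctsl in 104. All 10 genes were present together in 35 of 46 PBS cells, 25 of 47 cells of 1 mg/kg and 23 of 47 cells of 10 mg/kg, and no cell held fewer than 6 of them. Median detected genes per cell fell in the same order, 3143, 2418 and 2264. Ctsl and Ctsh had a Spearman's rho of 0.43 and 0.42 with detected genes. Joint detection was not counted for other genes, so the fall cannot be called particular to these 10.

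**Figure D1:**
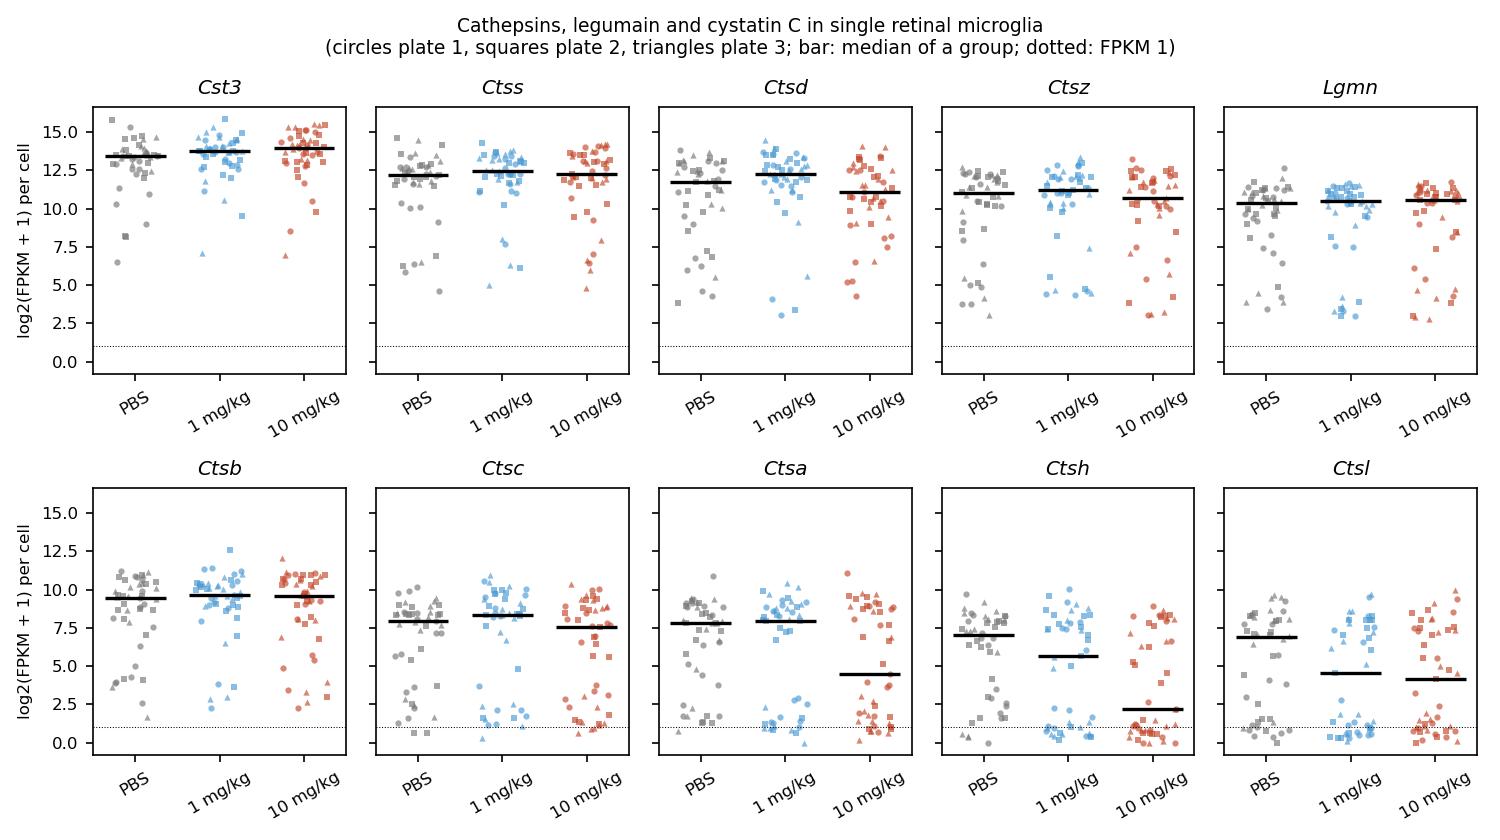
Level of each gene in every kept cell as log2(FPKM + 1), by group in order of dose, with bars at group medians, marker shapes for the 3 plates and a dotted line at 1 FPKM. Cst3, Ctss, Ctsd, Ctsz, Lgmn and Ctsb lie above the dotted line in all 140 cells. Ctsc, Ctsa, Ctsh and Ctsl mostly fall into a band of high cells and a band near or under it.

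Promoter windows are printed for the 4 genes whose patterns are set against each other below: Ctss and Cst3, which varied together across cells, and Ctsd and Ctsa, which carry the sequence CACGTG, the core of the element bound by the lysosomal regulators TFEB and TFE3. Each window runs from 250 bases before to 50 bases after a gene start in RefSeq on GRCm38.p6, which is the build of the expression table, and reads 5′ to 3′ on the gene's strand. Capitals mark CACGTG in Ctsd and Ctsa. In Ctss they mark the core of the interferon-stimulated response element, a pair of GAAA repeats, and GAGGAAGT on the opposite strand, a core of PU.1 sites. The windows are chr3:95526536-95526835 (plus strand) for Ctss, chr2:148875463-148875762 (minus) for Cst3, chr7:142387778-142388077 (minus) for Ctsd and chr2:164833523-164833822 (plus, the second of 2 Ctsa windows) for Ctsa.
Ctss: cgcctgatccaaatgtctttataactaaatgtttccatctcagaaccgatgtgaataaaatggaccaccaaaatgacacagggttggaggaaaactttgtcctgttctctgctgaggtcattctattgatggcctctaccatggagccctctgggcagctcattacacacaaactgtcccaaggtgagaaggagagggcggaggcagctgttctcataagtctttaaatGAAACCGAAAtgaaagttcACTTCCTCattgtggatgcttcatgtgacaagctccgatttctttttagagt
Cst3: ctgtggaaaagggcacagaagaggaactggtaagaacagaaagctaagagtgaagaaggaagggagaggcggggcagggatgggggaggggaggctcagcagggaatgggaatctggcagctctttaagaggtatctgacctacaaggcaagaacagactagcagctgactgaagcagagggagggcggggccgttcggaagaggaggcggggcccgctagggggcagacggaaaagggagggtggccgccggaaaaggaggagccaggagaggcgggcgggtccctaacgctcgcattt
Ctsd: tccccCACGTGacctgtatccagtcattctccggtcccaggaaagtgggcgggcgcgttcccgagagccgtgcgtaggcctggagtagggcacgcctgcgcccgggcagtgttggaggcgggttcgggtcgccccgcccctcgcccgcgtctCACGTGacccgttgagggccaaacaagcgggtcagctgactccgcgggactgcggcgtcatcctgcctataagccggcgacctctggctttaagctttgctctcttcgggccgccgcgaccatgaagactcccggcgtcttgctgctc
Ctsa: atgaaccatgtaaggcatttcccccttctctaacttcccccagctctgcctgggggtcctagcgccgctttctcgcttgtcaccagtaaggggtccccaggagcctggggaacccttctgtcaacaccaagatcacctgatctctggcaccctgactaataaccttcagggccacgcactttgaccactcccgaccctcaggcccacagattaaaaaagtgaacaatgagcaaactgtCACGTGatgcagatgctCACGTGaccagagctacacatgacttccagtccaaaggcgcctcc

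Windows were matched for 8 of the 10 genes, 10 windows in all. CACGTG, which reads the same on both strands, was found in 4 of them (Ctsd, Ctsl and 1 each of the 2 windows of Ctsa and Lgmn), 2 times each in the Ctsd and Ctsa windows printed above, against 7.15% of all 32851 windows. The longer CLEAR element, a palindrome that contains it, was in none of the 10 and in 0.326% of all windows. The interferon-stimulated response core was in the Ctss window alone among the 10 (3.44% of all windows), and GAGGAAGT in those of Ctss and Ctsc (3.20%), both strands being searched. The Cst3 window held none of the 4 motifs. These matches describe letters in the window only.

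Between groups, levels are compared as the difference of mean log2(FPKM + 1) over cells, and a difference of 1 or more in size was marked. All 10 genes passed the filter for the comparison of all genes, which kept the 4806 genes that reached 1 FPKM in 25% or more of the cells of some group. The background was not centred on 0: the median difference of all tested genes was −0.18 for 1 mg/kg minus PBS, −0.43 for 10 mg/kg minus PBS and −0.24 for 10 mg/kg minus 1 mg/kg, alongside fewer detected genes per cell in the ripasudil groups.

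At 1 mg/kg against PBS, 6 of the 10 genes were higher and 4 lower, against 35.3% of tested genes higher and 64.7% lower. Their median difference was 0.38, with 0.70, 0.16 and −0.33 on plates 1, 2 and 3. None differed by 1 or more, against 6.33% of tested genes (0.624% that much higher and 5.7% that much lower). Ctsb and Ctsd were higher on all 3 plates, against 7.8% of tested genes, and Ctsl was lower on all 3, against 24.3%. Without plate 1 the median was −0.006.

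At 10 mg/kg against PBS, 5 of the 10 genes were higher and 5 lower, against 18.6% and 81.4% of tested genes. The median difference was −0.13, with 0.32, −0.13 and −0.87 on plates 1, 2 and 3. Ctsh, Ctsa and Ctsl were lower by 1 or more, against 14.9% of tested genes (15% in either direction), and none was higher by as much, against 0.0832%. The same 3 genes were lower on all 3 plates, against 41.1% of tested genes, and Cst3 was higher on all 3, against 3.35%. The sign of the median depended on the cells used: it was 0.22 in cells with at least 2000 genes, 0.14 after adjustment for detected genes and plate, and 0.11 without plate 3.

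At 10 mg/kg against 1 mg/kg, Cst3 was higher and the 9 enzymes were lower, against 28% of tested genes higher and 72% lower. The median difference of the 10 genes was −0.46, with −0.16, −0.07 and −0.67 on the 3 plates. Ctsh was lower by 1 or more, against 6.8% of tested genes, and it alone differed by as much in either direction, against 7.3%. Ctss, Ctsh, Ctsz and Ctsd were lower on all 3 plates, against 27.8%, and none was higher on all 3, against 5.06%. In cells with at least 2000 genes the median was 0.09 and 6 genes were higher. The 3 comparisons share their groups, so their values are not independent.

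**Figure D2:**
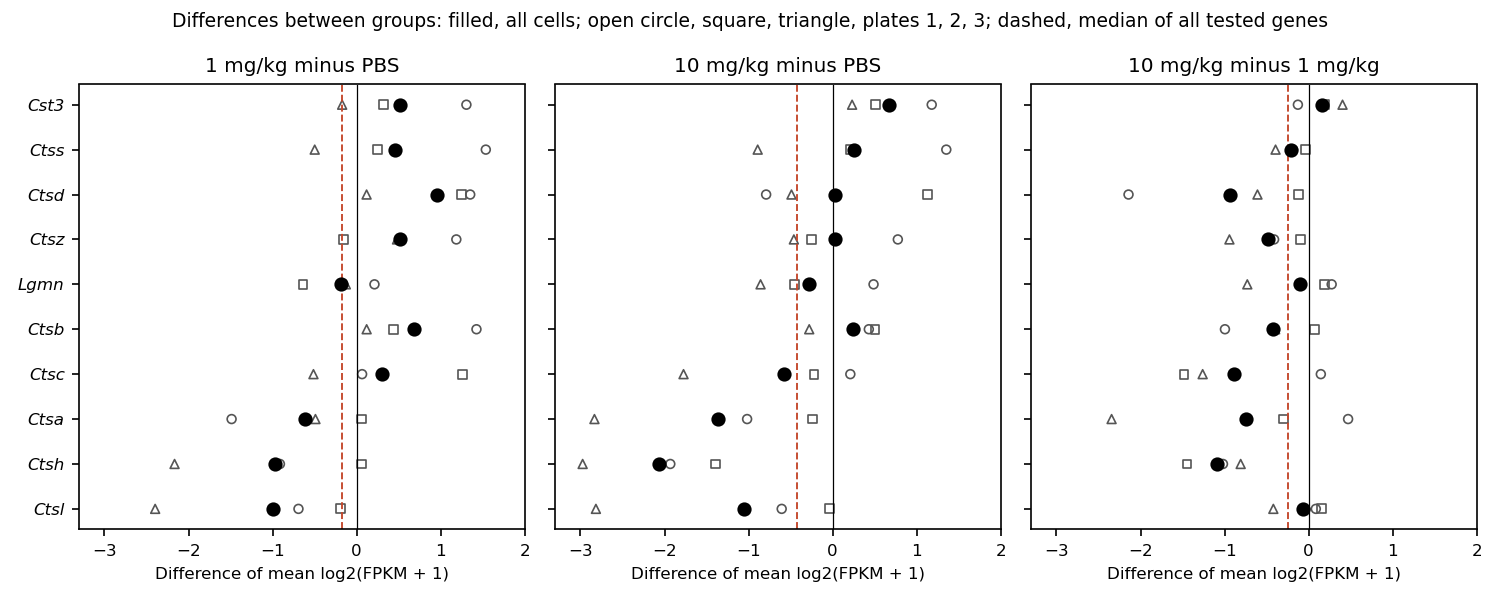
Difference of mean log2(FPKM + 1) for each gene in the 3 comparisons, with filled points for all cells, open circles, squares and triangles for plates 1, 2 and 3, and a dashed line at the median of all 4806 tested genes. Ctsh lies left of 0 on every plate at 10 mg/kg against PBS and against 1 mg/kg, and Cst3 lies right of 0 on every plate at 10 mg/kg against PBS.

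Among the endopeptidases, Ctss, which stays active at neutral pH and trims the class II invariant chain, is encoded on chromosome 3 (95526786 to 95556403, plus strand). Its FPKM ranged from 23.4 to 25003 in PBS cells with a median of 4758, from 31.5 to 19997 at 1 mg/kg with a median of 5575, and from 27.1 to 18922 at 10 mg/kg with a median of 4951. The 3 ranges overlapped almost wholly, and both the highest and the lowest cell were PBS cells. The difference was 0.46 at 1 mg/kg against PBS, with 1.54, 0.25 and −0.50 on plates 1 to 3, and 0.25 at 10 mg/kg against PBS, with 1.35, 0.21 and −0.89. Most of the height was on plate 1, whose PBS cells averaged 3545 FPKM, against 6819 and 7356 on plates 2 and 3, and without plate 1 the differences were −0.11 and −0.32.

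Ctsl, an endopeptidase of broad specificity, lies on chromosome 13 (64359337 to 64370890, minus strand). It ranged from 0 to 796 FPKM in PBS cells with a median of 118, from 0.0711 to 853 at 1 mg/kg with a median of 22.8, and from 0 to 1019 at 10 mg/kg with a median of 16.7. Cells at 100 FPKM or more numbered 24 of 46 in PBS, 18 of 47 at 1 mg/kg and 17 of 47 at 10 mg/kg, while the highest single cell was a 10 mg/kg cell. The difference was −0.99 at 1 mg/kg against PBS and −1.06 at 10 mg/kg against PBS. Most of it came from plate 3, where PBS cells had a median of 264 FPKM: the plate values were −0.69, −0.19 and −2.40 at 1 mg/kg and −0.61, −0.03 and −2.82 at 10 mg/kg. Without plate 3 the differences were −0.42 and −0.30, in cells with at least 2000 genes they were −0.19 and −0.08, and after adjustment for detected genes and plate −0.54 and −0.27. Ctsl shares 1742 exon bases with the antisense gene Gm47123, which was present in 10 cells at a mean of 1.02 FPKM. The use of strand in counting is not given, so reads of the shared bases cannot be assigned to one or the other.

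The cysteine exopeptidases trim peptides from their ends. Ctsb, which also cuts internally, lies on chromosome 14 (63122462 to 63145923, plus strand). It ranged from 2.19 to 2399.9 FPKM in PBS cells with a median of 691, from 3.86 to 6121 at 1 mg/kg with a median of 786, and from 3.81 to 4292 at 10 mg/kg with a median of 771. The medians lay close together, and 41 of 47 cells of 1 mg/kg reached 100 FPKM, against 36 of 46 PBS cells. The difference at 1 mg/kg against PBS was 0.68, with 1.43, 0.44 and 0.12 on the 3 plates, and it was above 0 under every alternative tried. It was no larger than the SD of the 3 plates, 0.68, and without plate 1 it was 0.28. The 10 mg/kg group differed from PBS by 0.25, with 0.43, 0.51 and −0.28.

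Ctsz, a carboxypeptidase on chromosome 2 (174427493 to 174439039, minus strand), ranged from 7.25 to 6879 FPKM in PBS cells with a median of 2042, from 19.4 to 10485 at 1 mg/kg with a median of 2414, and from 7.41 to 9591 at 10 mg/kg with a median of 1650.1. Of its 5 highest cells, 4 came from 1 mg/kg. The difference was 0.51 at 1 mg/kg against PBS (1.19, −0.15 and 0.48 by plate), 0.03 at 10 mg/kg against PBS (0.78, −0.25 and −0.46) and −0.48 at 10 mg/kg against 1 mg/kg (−0.41, −0.09 and −0.94). Values at 10 mg/kg and PBS thus did not separate beyond the plates.

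Ctsc removes dipeptides and activates the serine proteases of granules, and is encoded on chromosome 7 (88278085 to 88310888, plus strand). Its FPKM ranged from 0.537 to 1141 in PBS cells with a median of 243, from 0.259 to 1975 at 1 mg/kg with a median of 331, and from 0.565 to 1312 at 10 mg/kg with a median of 186. Of its 5 highest cells, 4 were cells of 1 mg/kg. At 10 mg/kg against 1 mg/kg the difference was −0.89, with 0.15, −1.48 and −1.26 on the 3 plates, and it was below 0 under every alternative tried. Against PBS it was 0.30 at 1 mg/kg (0.07, 1.26 and −0.51) and −0.58 at 10 mg/kg (0.21, −0.22 and −1.77), in both cases smaller than the spread of the plates.

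Ctsh, an aminopeptidase on chromosome 9 (90054152 to 90076089, plus strand), had the largest difference of the 10 genes at 10 mg/kg, both against PBS and against 1 mg/kg. It ranged from 0 to 833 FPKM in PBS cells with a median of 129, from 0.123 to 1077 at 1 mg/kg with a median of 49.7, and from 0 to 487 at 10 mg/kg with a median of 3.52. The ranges overlapped, but none of the 5 highest cells and 4 of the 5 lowest came from 10 mg/kg. Cells at 100 FPKM or more made up 56.5% of PBS cells (26 of 46, Clopper-Pearson 95% interval 41.1 to 71.1%), 46.8% at 1 mg/kg (22 of 47, 32.1 to 61.9%) and 29.8% at 10 mg/kg (14 of 47, 17.3 to 44.9%). These intervals cover counting error only. Ctsh was present in 91.3% of PBS cells, 74.5% at 1 mg/kg and 66.0% at 10 mg/kg. With every cell thinned to 300000 reads, which left out 5, 1 and 3 shallower cells of these groups, the shares were 87.8%, 69.6% and 63.6%. Where Ctsh was at 0, in 1 PBS cell and 3 cells of 10 mg/kg, 3 reads in a cell of median depth would have been 0.413 FPKM.

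The difference of Ctsh was −2.07 at 10 mg/kg against PBS, with −1.93, −1.39 and −2.97 on plates 1, 2 and 3, and 0.271% of the tested genes had a lower one. Between the doses, 10 mg/kg minus 1 mg/kg, it was −1.09, with −1.02, −1.45 and −0.81. At 1 mg/kg against PBS it was −0.97, with −0.91, 0.06 and −2.17, so the plates did not share a direction there. The value at 10 mg/kg against PBS stayed below 0 under every alternative tried but ranged widely, from −0.86 as a log2 ratio of mean FPKM and in cells with at least 2000 genes to −4.84 as a difference of medians. It was −1.20 after adjustment for detected genes and plate, and −2.36 without the cells with rod markers. Across the 140 cells Ctsh had a Spearman's rho of 0.42 with the number of detected genes, against −0.19 for Cst3.

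**Figure D3:**
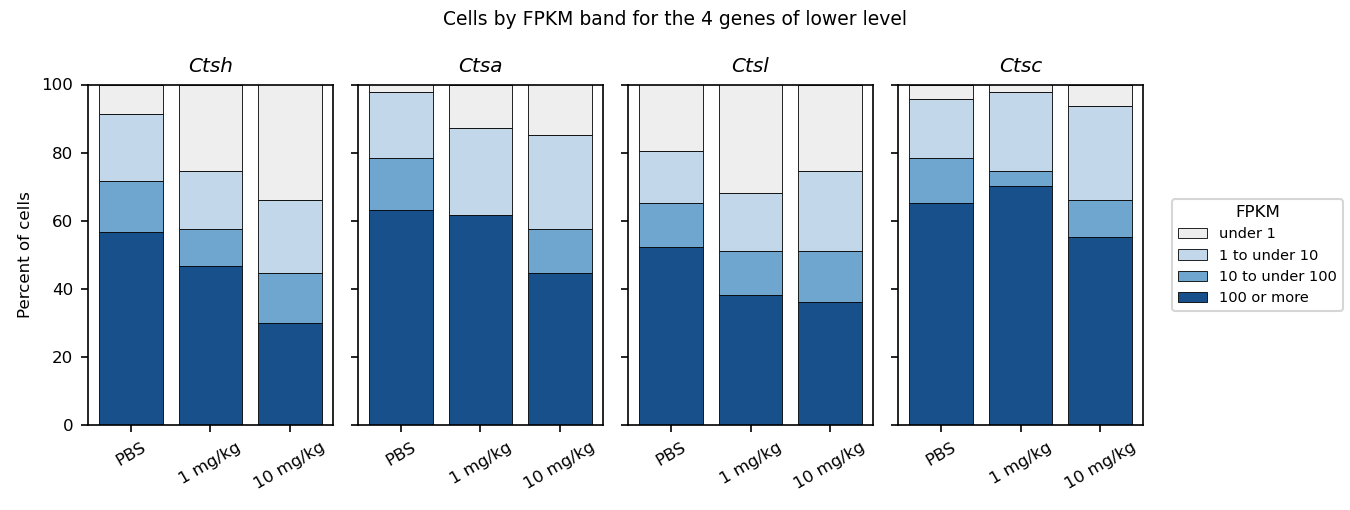
Percent of kept cells in 4 bands of FPKM for Ctsh, Ctsa, Ctsl and Ctsc, by group in order of dose. The darkest band of Ctsh, 100 FPKM or more, holds 56.5% of PBS cells, 46.8% at 1 mg/kg and 29.8% at 10 mg/kg, and for Ctsa the 1 mg/kg group has no cell from 10 to under 100 FPKM.

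The 4 genes of lower level were spread in an uneven way. For Ctsh, 59 of the 140 cells were under 10 FPKM, 19 from 10 to under 100 and 62 at 100 or more. Ctsa had 48, 13 and 79 cells in these bands, Ctsl 62, 19 and 59, and Ctsc 38, 13 and 89. The middle band was the least filled for each of the 4.

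Ctsd, the main aspartic protease of the lysosome, lies on chromosome 7 (142375911 to 142388038, minus strand). Its FPKM ranged from 13.3 to 14648 in PBS cells with a median of 3449, from 7.47 to 23081 at 1 mg/kg with a median of 4881, and from 18.3 to 17465 at 10 mg/kg with a median of 2222. Both the highest and the lowest cell came from 1 mg/kg, and none of the 5 highest was a PBS cell. The difference at 1 mg/kg against PBS was 0.96, with 1.35, 1.25 and 0.12 on the 3 plates, and 99.3% of tested genes had a lower one. It was above 0 under every alternative tried, from 0.46 to 1.31. At 10 mg/kg against PBS it was 0.03, with −0.79, 1.13 and −0.49, and its sign varied with the plate. Plate 1 held the largest gap between doses: Ctsd had a median of 491 FPKM in 10 mg/kg cells there, against 4232 in 1 mg/kg cells, and the difference of −0.93 at 10 mg/kg against 1 mg/kg was −0.36 without that plate.

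The level of Ctsd is uncertain. The gene model Gm49369 shares 808 exon bases with it, 34.4% of Ctsd's length and 79.0% of its own, and its reads were a median of 0.499 of those of Ctsd (rho 0.99 across cells). With those reads added to Ctsd the medians were 5185 FPKM in PBS cells, 7349 at 1 mg/kg and 3326 at 10 mg/kg, and the differences against PBS were 0.97 and 0.04, almost as before.

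Ctsa, a carboxypeptidase that also shields the glycosidases Neu1 and Glb1 in a lysosomal complex, lies on chromosome 2 (164832873 to 164841032, plus strand). It ranged from 0.665 to 1883 FPKM in PBS cells with a median of 224, from 0 to 1358 at 1 mg/kg with a median of 252, and from 0.111 to 2209 at 10 mg/kg with a median of 21.1. Cells at 100 FPKM or more numbered 29 of 46 in PBS, 29 of 47 at 1 mg/kg and 21 of 47 at 10 mg/kg, although the highest single cell was a 10 mg/kg cell. The difference at 10 mg/kg against PBS was −1.37, with −1.02, −0.24 and −2.83 on the 3 plates. It was −0.52 after adjustment for detected genes and plate, −0.62 without plate 3, and −0.15 as a log2 ratio of mean FPKM (253 at 10 mg/kg against 281 in PBS). At 1 mg/kg against PBS it was −0.62, with −1.49, 0.06 and −0.49. Ctsa shares 495 exon bases with Pltp and 324 with Neurl2, both on the opposite strand, and reads there could belong to either gene.

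Legumain cuts after asparagine and helps to mature several cathepsins. Lgmn lies on chromosome 12 (102394084 to 102439813, minus strand). Its FPKM ranged from 9.90 to 6586 in PBS cells with a median of 1306, from 6.82 to 3290.1 at 1 mg/kg with a median of 1433, and from 6.01 to 3449 at 10 mg/kg with a median of 1540.0. Its mean was the most even of the 10 over groups, 1473 in PBS cells, 1404 at 1 mg/kg and 1402 at 10 mg/kg. The differences of −0.19 at 1 mg/kg against PBS (0.21, −0.64 and −0.13 by plate) and −0.28 at 10 mg/kg against PBS (0.49, −0.45 and −0.86) were smaller than the spread of the plates.

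Cst3, the inhibitor, lies on chromosome 2 (148871722 to 148875692, minus strand). It ranged from 92.4 to 56738 FPKM in PBS cells with a median of 11171, from 136 to 58916 at 1 mg/kg with a median of 13659.6, and from 124 to 46893 at 10 mg/kg with a median of 16279.9. The ranges overlapped, and 3 of the 5 highest cells were of 10 mg/kg while 3 of the 5 lowest were PBS cells. On plate 1 the mean was 16258 FPKM at 10 mg/kg against 8568 in PBS, on plate 2 it was 16236 against 14812, and on plate 3 it was 22339 against 13929.9. The difference at 10 mg/kg against PBS was 0.68, with 1.18, 0.51 and 0.23 on the 3 plates. It was above 0 under all 17 alternatives, from 0.34 without the cells with rod markers to 0.85, and 99.1% of tested genes had a lower one. At 1 mg/kg against PBS it was 0.52, with 1.31, 0.32 and −0.17, and 0.10 without plate 1. Between the doses, 10 mg/kg minus 1 mg/kg, it was 0.16, with −0.13, 0.19 and 0.40.

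Since Cst3 binds cysteine proteases, its FPKM was set against the summed FPKM of Ctsl, Ctss, Ctsb, Ctsc, Ctsh, Ctsz and Lgmn in the same cell. The strength of binding to each was not weighed, and the height of the ratio depends on the gene lengths used. This ratio of transcripts had a median of 0.961 in PBS cells (0.0377 to 21.7), 1.03 at 1 mg/kg (0.244 to 18.9) and 1.34 at 10 mg/kg (0.138 to 18.5). Cst3 exceeded the sum in 21 of 46 PBS cells, 24 of 47 cells of 1 mg/kg and 31 of 47 cells of 10 mg/kg. On the log2 scale the mean ratio at 10 mg/kg was higher than in PBS by 0.41, with 0.27, 0.32 and 0.59 on the 3 plates, and higher than at 1 mg/kg by 0.24, with 0.11, 0.25 and 0.35. At 1 mg/kg it was higher than in PBS by 0.18, with 0.16, 0.07 and 0.24. The direction of these means was the same on every plate in all 3 comparisons, which share their groups. The medians did not all follow: on plate 3 the median ratio was 1.12 at 1 mg/kg against 1.29 in PBS. The SD between cells, 1.41 in PBS, 1.29 at 1 mg/kg and 1.26 at 10 mg/kg, was several times the difference.

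**Figure D4:**
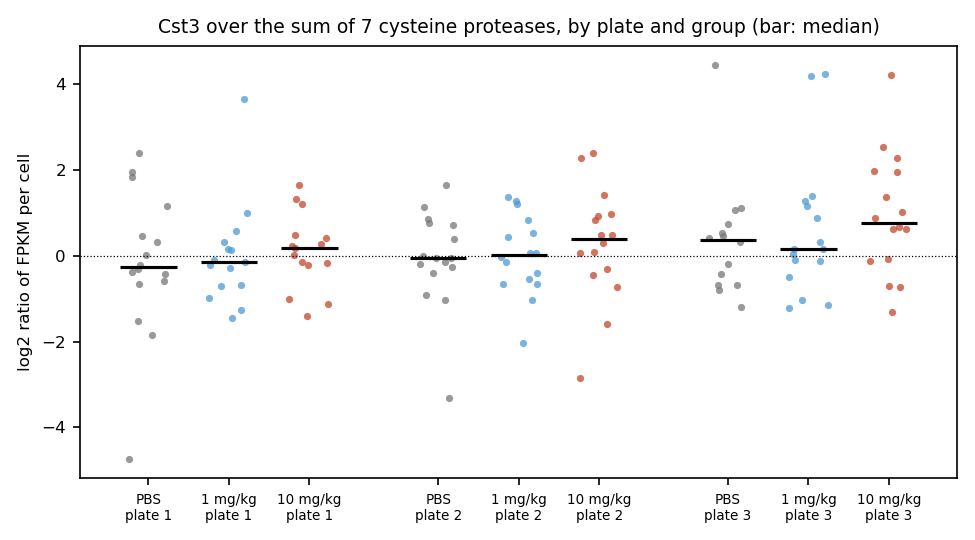
log2 ratio of Cst3 FPKM to the summed FPKM of the 7 cysteine proteases in each cell, by plate and, within a plate, by group in order of dose, with bars at medians and a dotted line at equal levels. The 10 mg/kg median lies above the PBS median on each plate (1.13 against 0.833, 1.32 against 0.961 and 1.71 against 1.29 as ratios), and the cells of all groups overlap widely.

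The rest of the pathway was taken from named lists. Of 15 other cathepsins, 2 passed the filter: Ctsf, at a mean of 27.2 FPKM and present in 42 cells, differed by 0.002 at 1 mg/kg and −0.24 at 10 mg/kg against PBS, and Ctso, at 12.3 FPKM, by −0.83 and −0.80. The next, the aspartic Ctse, was below the filter, at 0.200 FPKM in 1 mg/kg cells and 0.569 in 10 mg/kg cells against 18.6 in PBS cells. Of the 15, 7 were at 0 in every kept cell, among them Ctsg, the protease of neutrophil granules.

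Of 19 other cystatins and stefins, 17 had a row in the table and 2 passed, both lower against PBS at either dose. Cstb, the cytosolic stefin B, averaged 357 FPKM at 1 mg/kg and 449 at 10 mg/kg, against 571 in PBS cells, with differences of −0.79 and −0.40. Cst7, cystatin F, which is carried to the lysosome and acts on Ctsc, averaged 103 FPKM at 1 mg/kg and 173 at 10 mg/kg, against 195 in PBS cells, with differences of −1.08 and −0.72. Both were lower on all 3 plates at each dose, as were 24.3% and 41.1% of tested genes. Cst3 lay on the other side of 0 from both at each dose. Stfa2l1, next in level, was present in 9 cells.

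Of 12 genes that deliver enzymes to the lysosome, 8 passed, and all 8 were below 0 at 1 mg/kg and at 10 mg/kg against PBS, with medians of −0.38 and −0.58. Over all tested genes 64.7% and 81.4% were below 0, with medians of −0.18 and −0.43. By mean FPKM the direction was mixed, as 5 of the 8 had a higher mean at 10 mg/kg than in PBS cells. Psap, the saposin precursor, averaged 386 FPKM at 1 mg/kg and 344 at 10 mg/kg, against 699.8 in PBS cells, with differences of −1.41 and −1.51. M6pr, a receptor for mannose 6-phosphate, the tag that carries cathepsins to the lysosome, differed by −0.41 and −0.23, though its mean was 128 FPKM at 1 mg/kg and 133 at 10 mg/kg, against 87.7 in PBS cells. The retromer subunit Vps26a differed by −0.07 and −0.64, with means of 43.9 and 75.2 FPKM, against 32.2. Both partners of Ctsa passed: Neu1, at 26.8 FPKM, differed by 0.21 and 0.20, and Glb1, at 21.2 FPKM, by −0.91 and −0.93. Of the 4 regulators of lysosomal genes only Tfe3 passed, with −0.42 and −0.69, at a mean of 10.8 FPKM, while Tfeb and Mitf averaged 2.88 and 2.25 FPKM.

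All 7 genes of the class II chain and its processing passed, the pathway in which Ctss acts. Of the 7, 1 was above 0 at 1 mg/kg and 2 at 10 mg/kg against PBS, with medians of −0.26 and −0.31. Over all tested genes 35.3% and 18.6% were above 0, with medians of −0.18 and −0.43, so the median of the list was not below that background at 10 mg/kg. Of the 7, 2 were lower by 1 or more there, Ifi30 at −1.52 and H2-DMa at −1.37, against 14.9% of tested genes. None was higher by as much, against 0.0832%. Cd74, the invariant chain, averaged 703 FPKM at 1 mg/kg and 1074 at 10 mg/kg, against 365 in PBS cells, but was present in fewer cells, 57.4% and 68.1% against 80.4%, and its differences of mean log2 values were −1.33 and −0.20. H2-Ab1 differed by −0.99 and 0.12 and H2-DMb1 by 0.92 and −0.75. Between the doses, Cd74 and H2-Ab1 were higher at 10 mg/kg than at 1 mg/kg by 1.13 and 1.10 on the log2 scale, and H2-DMb1 differed by −1.67. Across the 140 cells the rho of Ctss with Cd74 was −0.01.

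Across cells, the 10 genes varied together to different degrees. Spearman's rho over the 140 kept cells had a median of 0.30 over the 45 pairs, from −0.09 to 0.62, and the cells share plates, groups and depth. Of the 45 pairs, 12 (26.7%) lay above 0.4, against 0.586% of the 11546415 pairs of all tested genes. The median over those pairs of tested genes was 0.13. They were not matched to the members in level or in share of cells, so the contrast may reflect level. For the 45 pairs, centring the ranks within group and plate gave a median of 0.31, and a partial rho given detected genes gave 0.28. By group the median was 0.45 in PBS cells, 0.27 at 1 mg/kg and 0.27 at 10 mg/kg.

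Ctsb stood at the centre of the stronger pairs, with rho 0.62 to Ctsz, 0.57 to Ctsd, 0.47 to Lgmn and 0.42 to Ctsa. Ctsz also paired with Ctsd at 0.47 and with Lgmn at 0.46. The Ctsb and Ctsz pair had rho 0.85 in PBS cells, 0.61 at 1 mg/kg and 0.41 at 10 mg/kg, while Ctsb and Ctsd had 0.63, 0.50 and 0.55. Ctss was closest to Cst3, at 0.55 over all cells and 0.55, 0.53 and 0.56 in PBS, 1 mg/kg and 10 mg/kg cells. Cst3 had rho from −0.09 (Ctsc) to 0.28 (Ctsd) to the other 8 enzymes. Its median rho over the other 9 genes was 0.21, and 0.28 as a partial rho given detected genes, where Ctsh had 0.22 and 0.18. The promoter windows were searched for 4 motifs only, and whether Ctss and Cst3 share a regulator was not tested.

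**Figure D5:**
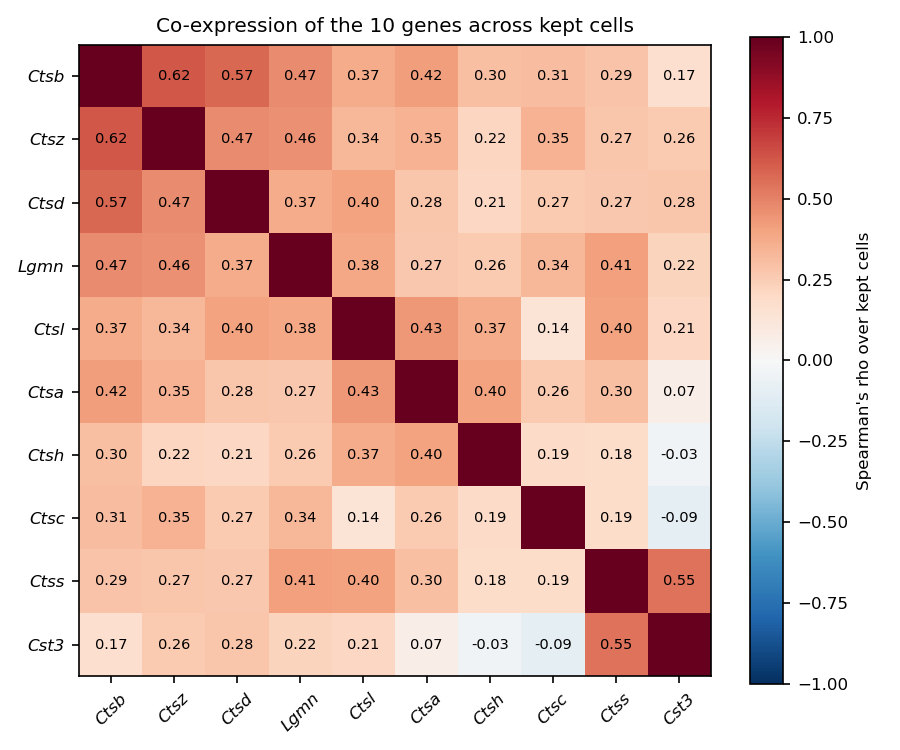
Spearman's rho between the 10 genes over 140 kept cells, coloured from −1 to 1 with the value in each cell of the matrix. Ctsb, Ctsz, Ctsd and Lgmn form a block with rho between 0.37 and 0.62, and the Cst3 row is pale except for Ctss at 0.55.

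The genes most like the mean of the 10 members, by rho over 140 cells among 2214 genes searched, included Cd9 (0.65), Nelfcd (0.62), Grn (0.62), Psap (0.60), Trpt1 (0.57) and Pdia6 (0.56). Grn encodes progranulin and Psap the saposin precursor. Nelfcd shares 10 exon bases with Ctsz, so its place may hold reads of that gene. Of the genes closest to a single member, Ncf1 was that of Ctsl (0.53), and the others were Cd9 for Ctsb (0.63) and Ctsd (0.52), Pdia6 for Ctsc (0.40) and Ctsh (0.49), Nelfcd for Ctsz (0.80), Pltp for Ctsa (0.87, with shared exon bases) and the complement gene C1qb for Cst3 (0.44).

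The members also varied with transcripts of other cell types. The 12 cells with border macrophage markers had lower medians than the other 128 cells for all 10 genes, with Cst3 at 3388 against 13528 FPKM and Ctsd at 321 against 4223, and for Cst3, Ctsd, Ctsz and Ctsl all 12 lay below the median of the others. Without these cells the Cst3 difference was 0.46 at 1 mg/kg and 0.51 at 10 mg/kg against PBS, that of Ctsd at 1 mg/kg 1.00, and that of Ctsh at 10 mg/kg −2.40. The 20 cells with rod markers also had lower medians for all 10 genes, from 0.0250 times the others for Ctsa (5.33 against 213 FPKM) to 0.806 times for Cst3 (10777 against 13373). Without them the Ctsl, Ctsa and Ctsh differences at 10 mg/kg against PBS were −1.23, −1.32 and −2.36, close to the values with them, while that of Cst3 was smaller at 0.34. In the 26 cells with neutrophil markers Ctsl had a median of 74.9 FPKM, against 24.2 in the others, Ctsd was at 4109 against 3725 FPKM and Cst3 at 8974 against 13081.

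The summed FPKM of the members and of the 10 microglial markers had a rho of 0.65 across the 140 cells. In 18 cells the markers summed to under 1000 FPKM, 8 of PBS, 6 of 1 mg/kg and 4 of 10 mg/kg, and the members summed there to a median of 10826 FPKM in PBS, 33325 at 1 mg/kg and 5691 at 10 mg/kg. Over all kept cells these medians were 27626, 34649.5 and 31649, so the 1 mg/kg cells showed little drop. Without those 18 cells the Cst3 difference was 0.38 at 1 mg/kg and 0.73 at 10 mg/kg against PBS, and that of Ctsh at 10 mg/kg was −2.43. The Ctsd difference at 1 mg/kg against PBS was 0.46 without them, where it was 0.96 with them.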

How the data were processed

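Single sorted cells were sequenced from libraries of amplified cDNA made by tagmentation, per the labels' protocols, with no molecular identifiers named. The authors deposited 1 table of FPKM values (reads scaled to gene length and to a cell's assigned reads) for 55364 genes in 144 cells. The submitters' processing notes name the build as GRCm38.p6 and mm10 and list STAR 2.7.2b and featureCounts 1.6.1, beside cutadapt 1.16, Trimmomatic 0.36 and Trim Galore 0.4.4, with no role or order. Settings, strand and the treatment of shared reads are not given in the sources used here.

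The most frequent positive value of FPKM times gene length in a cell was taken as 1 read, which gave reads per cell. A median of 53.0% of positive values were whole reads within 0.01 read, so no count model was used. Cells with at least 1000 genes at FPKM 1 or more were kept (140 of 144). Differences are of mean log2(FPKM + 1), pseudocount 1, over cells, pooled and by plate, and they understate changes of genes of low level. Each group is 1 sample, so no p-value was computed. Shares carry Clopper-Pearson 95% intervals. Calculations were tested on simulated data. Computations ran in Python 3.11.15 (pandas 2.3.3, numpy 2.4.6, scipy 1.17.1) and plots in matplotlib 3.10.9.

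All members are named. From each pathway list the 3 genes of highest level were named (fewer where a list is shorter or a gene is near 0), and the genes most like the members were the 8 with the highest rho to their mean and 1 for each member, leaving out gene models. Some of these genes are not reported here. Counts and overlapping neighbours are named beyond this rule. The members, lists, markers and alternatives were chosen with earlier results of these data known, so no pattern here is independent support for those. Alternatives concerning shallow cells, the reads of Gm49369, border macrophage markers and summed microglial markers were added after seeing the data.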

Additional observations from a re-analysis of the deposited data

How the results depend on the processing

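Of 510 values of single members under 17 alternatives in 3 comparisons, 491 moved by less than the SD of the 3 plates, 19 moved by more, and 45 had another sign than the value reported, none of them a value of 1 or more in size. Of 270 shares of cells, 235 stayed inside their 95% interval and 35 did not. The reported shares of Cst3, Ctss, Ctsd, Ctsz, Lgmn and Ctsb were 100% in every group. The total therefore says little of how steady the shares of Ctsc, Ctsa, Ctsh and Ctsl were. The median difference of the 10 genes at 10 mg/kg against 1 mg/kg was 0.093 in cells with at least 2000 genes, where that reported was -0.46. The median rho of 0.30 was 0.45 in PBS cells and 0.43 in cells with at least 2000 genes. The cause was not tested. Leaving out 1 plate in turn gave medians from -0.006 to 0.60 at 1 mg/kg against PBS, from -0.52 to 0.11 at 10 mg/kg against PBS, and from -0.63 to -0.18 at 10 mg/kg against 1 mg/kg. No paired analysis was possible because the labels name no animal to pair and no test was made. Pairing by plate alone, as means of the 3 within-plate differences, gave medians of 0.35, -0.16 and -0.46 in these comparisons. Genes under about 10 FPKM in a cell rest on few reads in the shallow cells, where 3 reads of Ctsl came to as much as 15.3 FPKM.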
